A study of Mus musculus with 18 samples.

Results

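The hair keratins and keratin-associated proteins, the building material of hair, were followed in mouse skin that was left alone, tape stripped, or stripped while the animals received a plant extract. Genes were chosen by name: every probe set of the array with a single gene symbol that is either a Krtap gene or one of 22 hair keratin symbols. This gave 63 probe sets for 58 genes, among 45037 tested probe sets for 18193 genes. Where a gene has several probe sets, the one with the highest mean was used. In 48 of the 58 genes the values ranged by at least 0.01 over the 18 arrays, and these 48 are described; 6842 of all genes met the same minimum. The other 10 (Krtap13, Krtap5-4, Krtap19-4, Krt82, Krt36, Krtap19-1, Krtap31-1, Krtap12-1, Krt84 and Krtap5-3) held a constant value in the probe set used, which gives no information on any group. Krt74 and Krt85 have no probe set with that single symbol, and 6 probe sets that name several genes were not used.

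Dorsal skin came from male HR-1 mice (HOS: HR-1), an albino hairless strain, given as 6 weeks old in every group. NT skin was not stripped. TS skin, on the left of the back, had cellophane tape applied and pulled off 3 times each week over 4 weeks, and a session stopped once transepidermal water loss reached 70 to 100 g/m2/h. WB skin was stripped in the same way, and the mice were given winged bean extract by mouth, 200 mg/kg/day as a 20 mg/ml solution in 0.3% carboxymethylcellulose, 5 times per week for 5 weeks, beginning 1 week before the first stripping. Each group has 6 arrays, labelled as biological replicates. The labels do not say whether NT and TS skin came from different mice, or whether NT and TS mice received the carboxymethylcellulose vehicle.

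Hair is made at the base of the follicle, where matrix cells divide, move up and fill with keratin. Acidic (type I) and basic (type II) keratins pair into filaments, and the keratin-associated proteins, rich in cysteine or in glycine and tyrosine, embed these filaments and cross-link them through disulfide bonds. The inner root sheath, a mould around the growing shaft, has keratins of its own, and the companion layer separates it from the outer root sheath. These genes are active while a follicle grows a hair and largely silent while it rests. Hairless mice lose their first coat and keep follicle remnants in the skin.

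The genes lie in a few dense clusters, and most start from promoters of one kind, which is why a set of them is shown. RefSeq promoter sequences (GRCm38.p6) were matched for 42 of the 48 genes. The string TATAAA, the core of a TATA box, was found on the gene's strand within the 60 bases before the start in 34 of the 42 (81%), against 2.87% of all 32851 promoters searched in the same window. Its first base lay 15 to 55 bases before the start, with a median of 31. The lines below give those 60 bases for inner root sheath keratins, shaft keratins and associated proteins whose values are described further on, with TATAAA in capitals. The last of them, Krt75 of the companion layer, is shown as one without this string in the window.

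Krt25 (chr11:99322952-99323011, minus strand): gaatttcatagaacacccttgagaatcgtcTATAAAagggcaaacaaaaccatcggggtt
Krt27 (chr11:99351119-99351178, minus strand): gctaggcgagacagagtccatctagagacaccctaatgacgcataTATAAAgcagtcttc
Krt71 (chr15:101743098-101743157, minus strand): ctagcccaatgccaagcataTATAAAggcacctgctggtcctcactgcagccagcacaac
Krt32 (chr11:100088270-100088329, minus strand): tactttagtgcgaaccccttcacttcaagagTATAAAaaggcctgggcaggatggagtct
Krt34 (chr11:100041555-100041614, minus strand): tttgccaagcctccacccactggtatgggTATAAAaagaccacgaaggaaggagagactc
Krtap4-1 (chr11:99628240-99628299, minus strand): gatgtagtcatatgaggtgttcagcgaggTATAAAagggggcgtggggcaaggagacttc
Krtap17-1 (chr11:99993995-99994054, minus strand): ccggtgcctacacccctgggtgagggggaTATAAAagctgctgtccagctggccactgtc
Krtap11-1 (chr16:89571184-89571243, minus strand): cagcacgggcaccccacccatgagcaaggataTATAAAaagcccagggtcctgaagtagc
Krtap8-1 (chr16:89487953-89488012, minus strand): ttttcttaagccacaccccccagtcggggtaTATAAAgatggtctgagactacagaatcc
Krtap6-5 (chr16:89047900-89047959, minus strand): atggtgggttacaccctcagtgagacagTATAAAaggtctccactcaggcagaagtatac
Krt75 (chr15:101573905-101573964, minus strand): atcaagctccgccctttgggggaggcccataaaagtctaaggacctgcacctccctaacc

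In the longer window of 300 bases around the start, read on both strands, TATAAA was present in 37 of 42 promoters (88.1%, against 13.6% of all). CTTTGAA, the core bound by LEF1 and TCF factors of the Wnt pathway, was present in 11 (26.2%, against 5.14%). TTTATNG, a string searched for HOXC13, a regulator of hair keratin genes, was also present in 11 (26.2%, against 10.9%), and in 5 of these it overlapped a TATAAA. The string GACGC, searched for FOXN1, the factor missing in nude mice, was present in 4 (9.52%, against 27.2%). These matches are letters in a window and not measured binding. The comparison with all promoters did not take base composition into account, and its part in these shares was not tested. Neighbouring genes of a cluster have similar sequences, so the promoters are not independent of each other.

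All values are given on the deposited scale, read as log2, whose base is not stated, so folds rest on that reading. The median of all values was 6.93, and background was not measured, which leaves the size of a difference uncertain where a group mean lies under that median. Among the genes with a TS mean under it are Krt26 (6.65), Krt86 (6.89), Krtap28-13 (6.82), Krtap5-2 (6.45), Krtap4-1 (6.76) and Krtap6-5 (6.55). Arrays of a group correlated over varying genes at 0.874 to 0.986 (NT), 0.946 to 0.983 (TS) and 0.952 to 0.990 (WB), as the lowest and highest pair. The 3′ minus 5′ difference of the actin control probe sets, which widens when RNA is shortened or copied incompletely, was -0.51 ± 0.10 in NT, 0.16 ± 0.07 in TS and 5.69 ± 0.25 in WB (SD, n = 6). That of Gapdh was -0.59 ± 0.11, -0.44 ± 0.11 and 3.70 ± 0.36. The WB arrays did not overlap NT or TS in either measure (two-sided exact permutation test, p = 0.00216, the smallest that 6 against 6 arrays allow, adjusted p = 0.0026). TS arrays did not overlap NT arrays in the actin measure either, with a difference of 0.66 (p = 0.00216, adjusted p = 0.0026), and their Gapdh measure differed by 0.15 (p = 0.0476, adjusted p = 0.0476), in the same exact test. The part of these differences in the results on the hair genes was not tested. Liver marker genes averaged 15.22 in NT replicate 5 and at most 6.50 in the other NT arrays. Without NT replicate 5, 39 of the 48 genes were still called lower in TS than in NT.

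Hair keratin and associated protein transcripts fell together after tape stripping. A gene was called when its adjusted p in limma was under 0.05 and its difference at least 0.01. In TS against NT, 41 of the 48 genes were called lower and 0 higher, and 0 were higher at an unadjusted p under 0.05. Among all varying genes 21.1% were called lower and 19.3% higher, and among all tested probe sets 5.14% and 4.97%. The difference was negative in each of the 48 genes, with a median of -1.49 and a range of -2.84 to -0.19, while the median over all varying genes was 0.00. In whole skin, fewer cells of a type and less RNA per cell cannot be told apart.

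**Figure D1:**
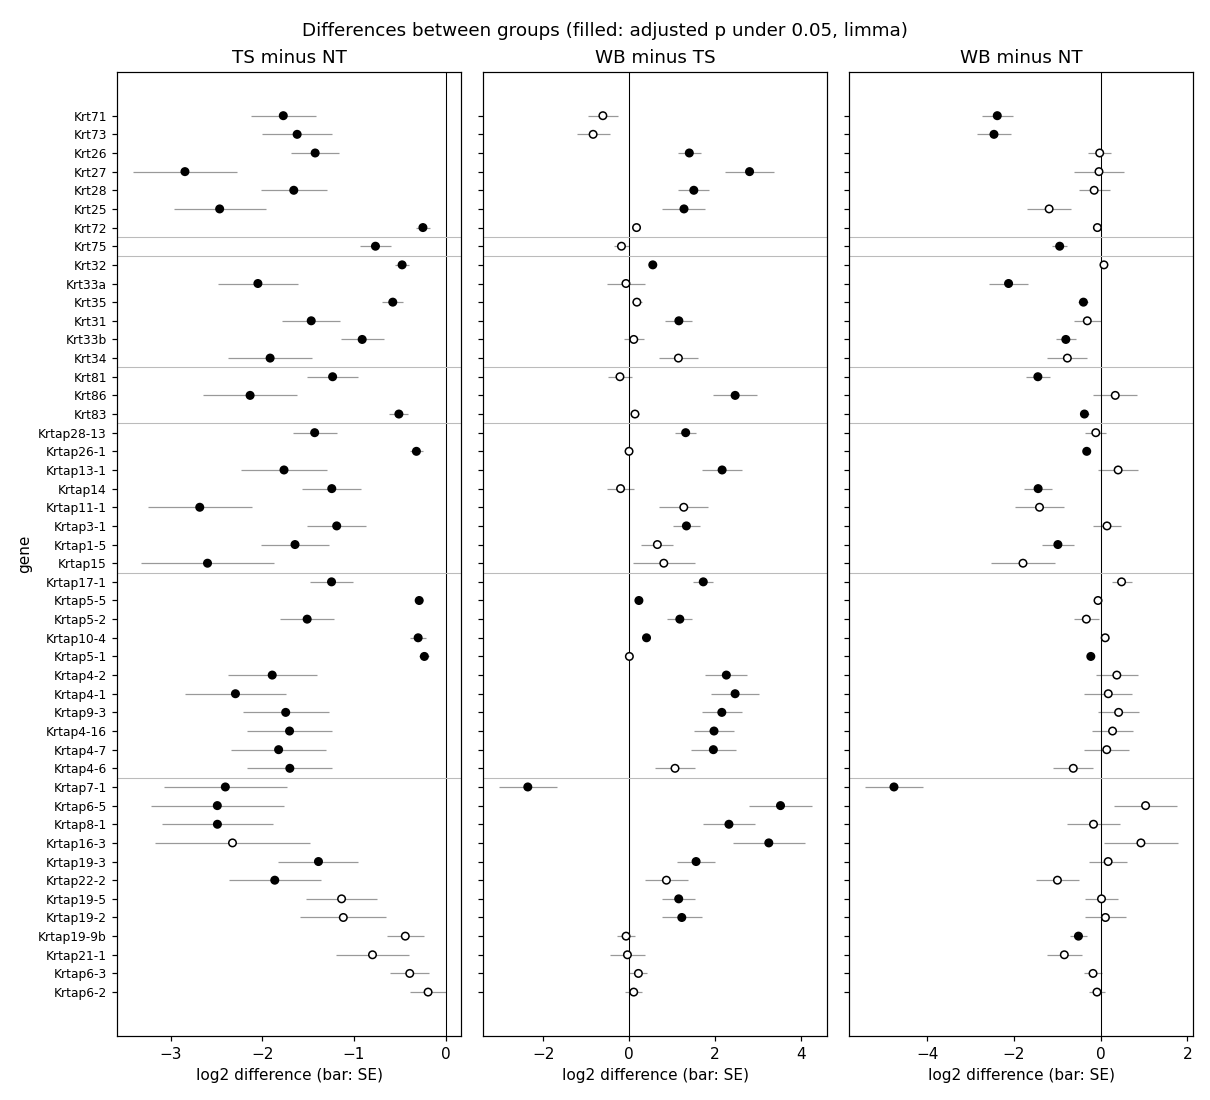
Differences between group means on the log2 scale for the 48 varying genes, by role, with SE as bars and filled points for genes called in limma. All 48 points of TS minus NT lie below 0, and those of WB minus NT run from -4.77 to 1.03.

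Each of the 7 inner root sheath keratins fell in TS. Krt71, a type II sheath keratin whose mutation curls the coat, measured 9.80 to 11.07 in NT (median 10.71) and 7.94 to 10.27 in TS (median 8.59). Its difference was -1.77 ± 0.35 (SE, adjusted p = 0.0025), a 3.41-fold lower mean. Krt73, also type II, ran from 8.77 to 10.34 in NT (median 9.51) and from 7.05 to 9.24 in TS (median 7.50), a difference of -1.62 ± 0.38 (adjusted p = 0.00835). In both genes the groups overlapped by the single array TS replicate 6, and the other 5 TS arrays lay below all NT arrays.

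The type I sheath keratin Krt26 measured 7.64 to 8.54 in NT (median 8.0) and 6.07 to 7.65 in TS (median 6.47), a difference of -1.42 ± 0.26 (adjusted p = 0.00134). Krt27, another type I sheath keratin, showed the widest gap of the 48 genes: 10.21 to 11.79 in NT (median 11.25) against 6.59 to 10.42 in TS (median 7.95). This was a difference of -2.84 ± 0.57 (adjusted p = 0.00244), or a 7.18-fold lower mean. The TS arrays of Krt27 were spread far more widely than its NT arrays. The other type I sheath keratins, Krt25 (-2.46) and Krt28 (-1.66), fell too. Krt72, a keratin of the sheath's cuticle, fell least (-0.25 ± 0.08, adjusted p = 0.0452), and leaving out any of 11 arrays moved its adjusted p to 0.0531 to 0.101.

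Krt75, the keratin of the companion layer, measured 8.08 to 8.87 in NT (median 8.49) and 7.42 to 8.22 in TS (median 7.60). It fell by 0.77 ± 0.17 on the log2 scale (adjusted p = 0.00496), with only the highest TS array inside the NT range.

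Shaft keratins fell in both classes, 6 of 6 type I and 3 of 3 type II genes. Krt35, an early keratin of the matrix and lower cortex, measured 7.90 to 8.32 in NT (median 8.14) and 7.27 to 8.04 in TS (median 7.46), a difference of -0.58 ± 0.12 (adjusted p = 0.00276). The cuticle keratin Krt32 went from 7.58 to 7.91 in NT (median 7.76) to 7.10 to 7.59 in TS (median 7.21), a difference of -0.47 ± 0.08 (adjusted p = 0.000618). Krt33a, a cortex keratin, had 9.29 to 10.61 in NT (median 10.05) and 6.61 to 9.76 in TS (median 7.86), a difference of -2.05 ± 0.44 (adjusted p = 0.00428). In all 3 the overlap with NT came from the highest TS array. The other cortex keratins of type I ranged from -0.91 (Krt33b) to -1.91 (Krt34), with Krt31 at -1.47.

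Among type II shaft keratins, Krt81 measured 8.60 to 9.47 in NT (median 9.12) and 7.04 to 9.03 in TS (median 7.84), a difference of -1.23 ± 0.28 (adjusted p = 0.00664). Krt86 had 8.34 to 9.64 in NT (median 9.04) and 5.42 to 9.09 in TS (median 6.84), a difference of -2.13 ± 0.51 (adjusted p = 0.00874). Krt83 had 8.05 to 8.46 in NT (median 8.25) and 7.40 to 8.12 in TS (median 7.76), a difference of -0.51 ± 0.10 (adjusted p = 0.00294). The TS range of Krt86 was far wider than its NT range, and in each of the 3 genes the highest TS array reached into NT.

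The high sulfur associated proteins, which carry cysteines for cross-linking, fell in 8 of 8 genes. Krtap28-13 measured 8.03 to 8.54 in NT (median 8.20) and 6.19 to 7.94 in TS (median 6.70). Its difference was -1.43 ± 0.24 (adjusted p = 0.000665), and its groups did not overlap. Krtap26-1 moved little, from 7.24 to 7.48 in NT (median 7.34) to 6.86 to 7.36 in TS (median 7.02), a difference of -0.32 ± 0.07 (adjusted p = 0.0074). Krtap13-1 had 7.96 to 9.49 in NT (median 8.62) and 5.63 to 8.59 in TS (median 6.92), a difference of -1.76 ± 0.47 (adjusted p = 0.0157), and its TS mean lay under the table's median. Krtap11-1 (-2.68) and Krtap15 (-2.60) showed the widest gaps of this class. Krtap15 lost its call (adjusted p 0.0501 to 0.0509) when NT replicate 2, TS replicate 1 or TS replicate 4 was left out.

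All 11 ultra-high sulfur genes fell, the proteins with the highest cysteine content of hair. Krtap17-1 measured 8.42 to 9.15 in NT (median 8.83) and 7.06 to 8.59 in TS (median 7.46), a difference of -1.24 ± 0.23 (adjusted p = 0.00151). Krtap5-5 measured 7.09 to 7.19 in NT (median 7.15) and 6.77 to 7.04 in TS (median 6.84). Its difference was small, -0.29 ± 0.04 (adjusted p = 0.000272), and its TS mean (6.86) lay under the table's median. Krtap5-2 had 7.64 to 8.30 in NT (median 7.94) and 5.55 to 7.67 in TS (median 6.39), a difference of -1.51 ± 0.29 (adjusted p = 0.00196). Of these only Krtap5-5 had groups that did not overlap. The Krtap4 and Krtap9 genes of the chromosome 11 cluster ranged from -1.70 (Krtap4-6 and Krtap4-16) to -2.29 (Krtap4-1), with TS SDs of 1.31 to 1.58. Genes of these families are near-identical copies, so neighbouring genes may share signal and how it divides among them is uncertain. Krtap4-7 passed at adjusted p = 0.0244 and missed, at up to 0.0546, without NT replicate 6 or TS replicate 1, 4 or 5.

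Of the high glycine-tyrosine genes, small proteins of the hair cortex, 5 of 12 were called lower (41.7%, against 21.1% of all varying genes). All 12 differences were negative, with a median of -1.26. Without TS replicate 6, 9 of the 12 were called lower (75%, against 19.5%). Krtap8-1 measured 10.42 to 11.38 in NT (median 10.98) and 6.27 to 10.82 in TS (median 8.60), a difference of -2.49 ± 0.60 (adjusted p = 0.0097). Krtap7-1 had 8.98 to 11.48 in NT (median 10.07) and 5.69 to 10.22 in TS (median 7.69), a difference of -2.40 ± 0.67 (adjusted p = 0.0221). Krtap6-5 had 8.17 to 9.55 in NT (median 9.07) and 4.52 to 9.90 in TS (median 6.29), a difference of -2.49 ± 0.73 (adjusted p = 0.0278). All 3 were spread more widely within TS than within NT, and for Krtap6-5 the highest TS array lay above all NT arrays. Krtap22-2 (-1.86) and Krtap19-3 (-1.39) also fell. Leaving out 1 array ended the call of Krtap19-3 in 11 cases, of Krtap6-5 in 6 and of Krtap7-1 in 3, with adjusted p up to 0.0964, 0.0647 and 0.0538. The 7 genes not called were Krtap16-3 (-2.32, adjusted p = 0.0787), Krtap19-5 (-1.13, 0.0612), Krtap19-2 (-1.12, 0.139), Krtap21-1 (-0.80, 0.24), Krtap19-9b (-0.44, 0.193), Krtap6-3 (-0.39, 0.28) and Krtap6-2 (-0.19, 0.695).

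**Figure D2:**
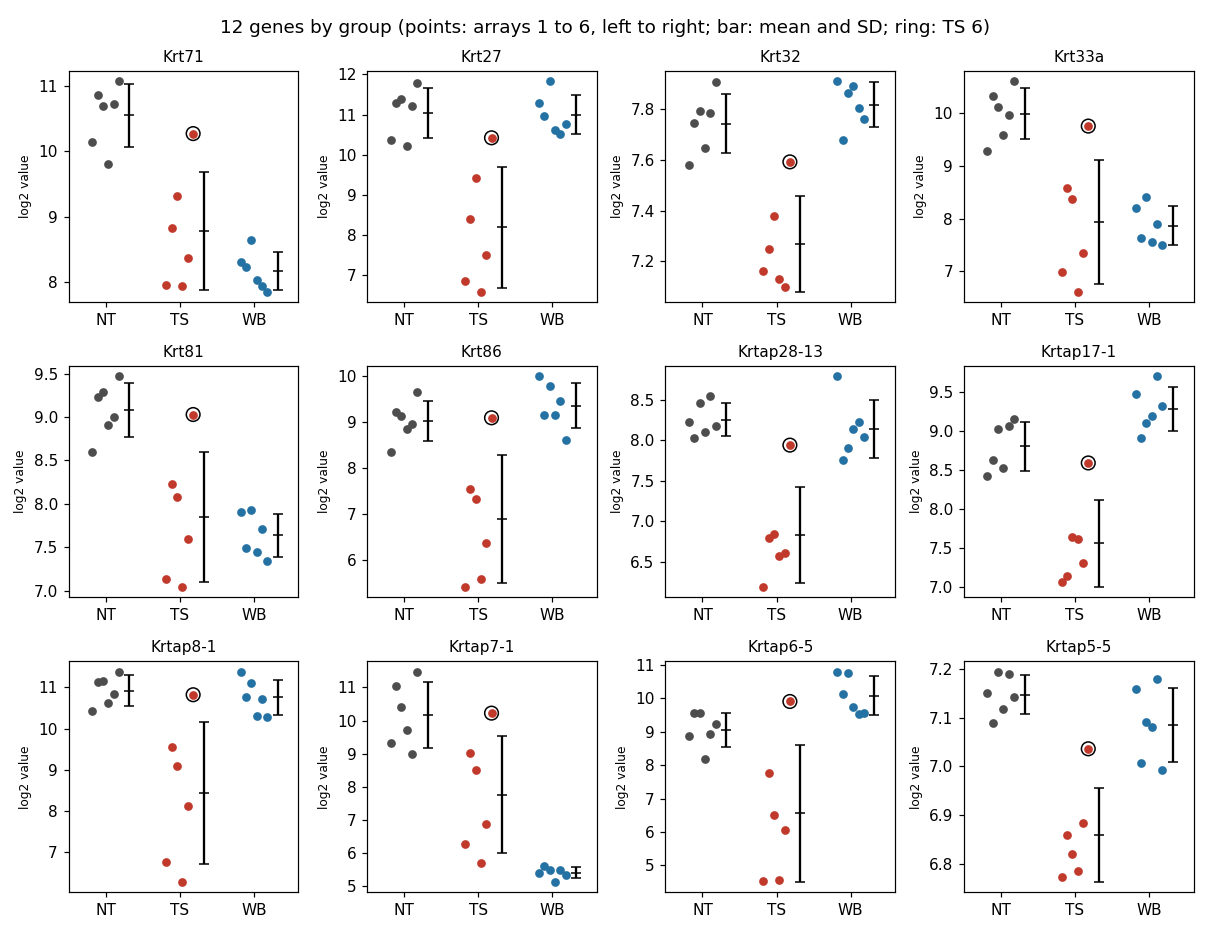
Log2 values of 12 genes in the 6 arrays of NT, TS and WB (points in replicate order, mean and SD as the bar, TS replicate 6 ringed). The ringed point is the highest TS array in all 12 genes and lies below every NT array only in Krtap28-13 and Krtap5-5.

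The TS group was not uniform. TS replicate 6 was the highest TS array in 48 of the 48 genes, and in 9.13% of all varying genes. Its median difference from the NT mean over the 48 genes was -0.01, against -1.10 to -2.26 in the other 5 TS arrays. It lay within the NT range in 41 genes, above it in 5 and below it in 2, while over all varying genes it lay within in 37.7%, above in 30.1% and below in 32.2%. TS replicates 1, 3 and 5 lay below all NT arrays in 48 genes, TS replicate 4 in 47 and TS replicate 2 in 43, against 28.5% to 37.3% of all varying genes in these 5 arrays. At the low end, TS replicate 1 was the lowest TS array in 28 genes and TS replicate 4 in 17. Over all varying genes they were the lowest in 10.5% and 26.6%. The same replicate numbers stood at the ends in NT, with smaller differences. NT replicate 6 was the highest NT array in 29 of the 48 genes (18.6% of all varying genes). NT replicate 1 was the lowest in 24 (25%) and NT replicate 4 in 15 (19.7%).

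**Figure D3:**
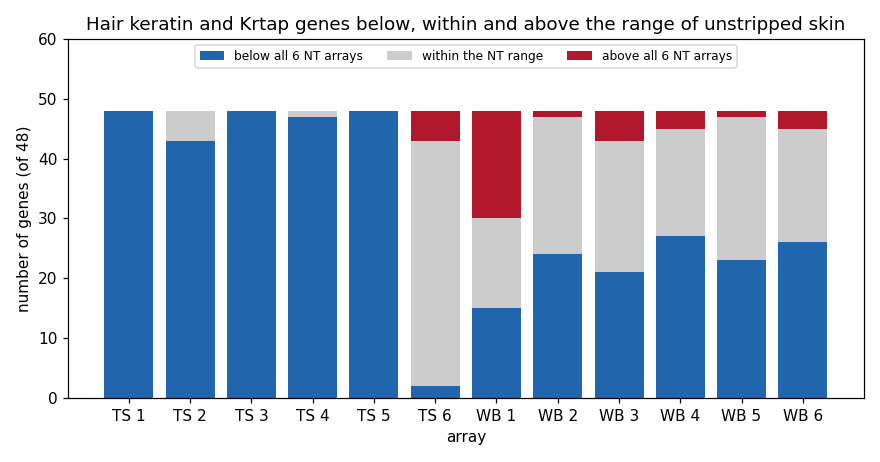
Number of the 48 genes that lie below all 6 NT arrays, within their range or above all of them, for each TS and WB array. TS replicate 6 has 41 genes within the NT range, whereas each of the other 5 TS arrays has 43 or more below it.

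Genes that respond to barrier damage had values in TS replicate 6 far from NT. Krt6b, a keratin of stressed epidermis, measured 14.11 in it, against 6.47 to 8.78 in NT and 13.66 to 15.25 over TS. Rptn, an epidermal matrix protein, measured 12.87 in it and at most 5.76 in NT. Krt77, a keratin of normal upper epidermis, measured 6.08 in it, the lowest TS value, against 14.95 to 15.54 in NT. Its 3′ minus 5′ difference for actin, 0.08, was the lowest of the TS arrays (0.09 to 0.26 in the others), and that for Gapdh was -0.37 (-0.62 to -0.31 in the others). Marker levels of the tissue lay within the other TS arrays: 11.2 against 10.3 to 11.5 for skeletal muscle, 9.56 against 9.22 to 10.2 for fat cells, 11.4 against 11.3 to 11.9 for sebaceous gland and 12.5 against 12.3 to 12.7 for interfollicular epidermis. Markers of follicle stem cells and outer root sheath averaged 9.22 against 8.95 to 9.19, just above the other TS arrays.

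Without TS replicate 6, a choice made after its values were seen, 45 of the 48 genes were called lower in TS than in NT, where 19.5% of all varying genes were. The median difference was then -1.75. Groups did not overlap, with TS lower, in 2 of the 48 genes with all arrays (13.7% of all varying genes) and in 43 without TS replicate 6 (15.1%). The median SD of the 48 genes was 0.346 in NT, 0.899 in TS and 0.306 in WB, and 0.565 in TS without replicate 6. The TS SD was above the NT SD in 44 of 48 genes (91.7%), against 65.7% of all varying genes, and without replicate 6 in 40 (83.3%, against 66.7%).

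**Figure D4:**
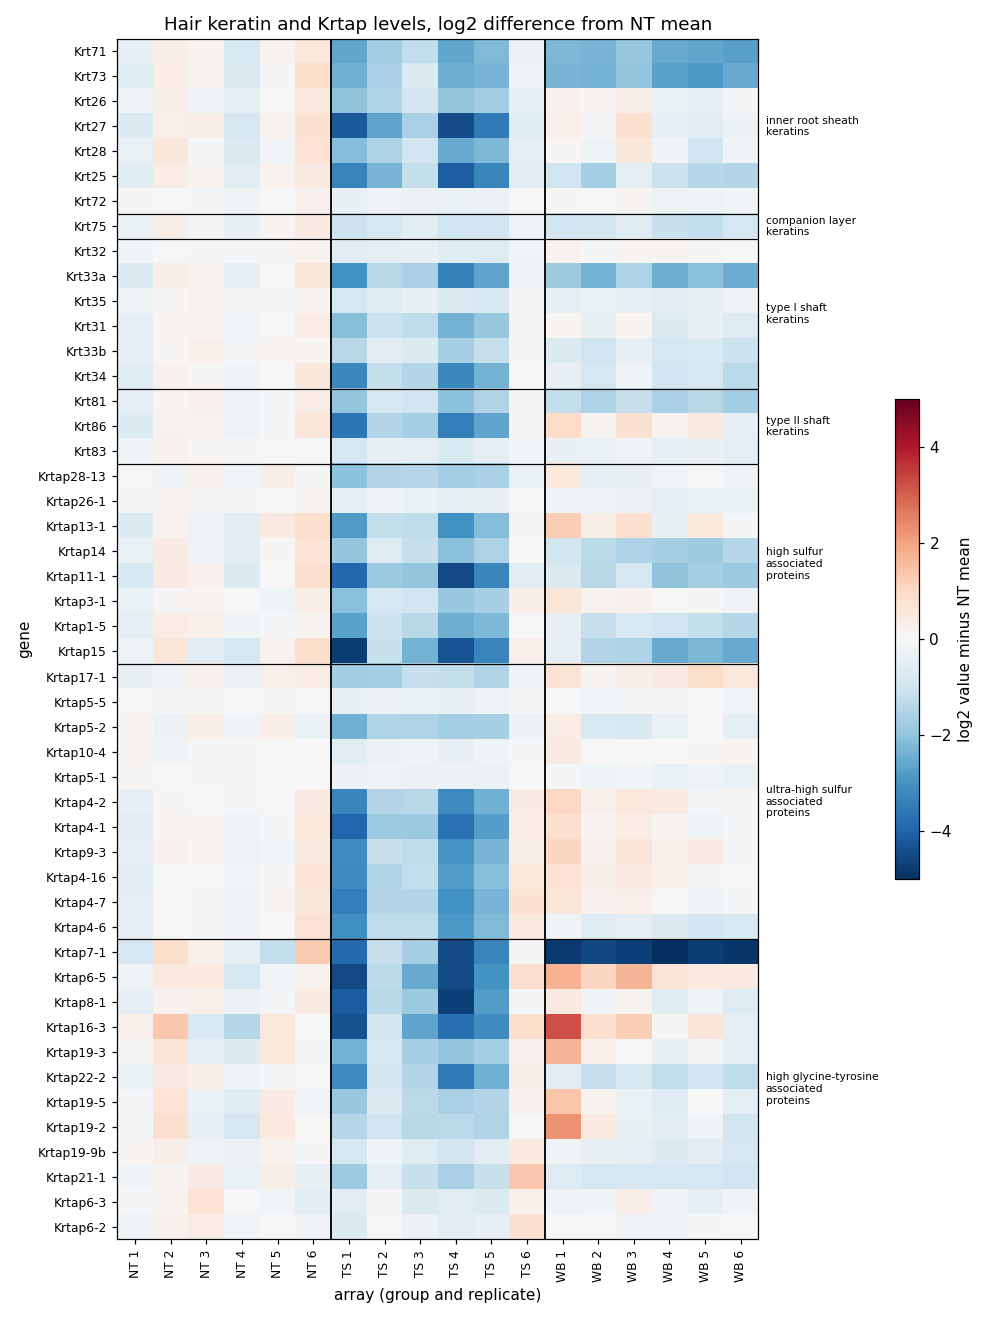
Log2 value minus the NT mean for the 48 genes (vertical axis, by role) in the 18 arrays (horizontal axis). TS replicates 1 to 5 are low in nearly all genes, with median differences of -1.10 to -2.26, and TS replicate 6 is near NT at -0.01.

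Other structural proteins of shaft and inner root sheath, from a list of 16 that holds none of these genes, moved in part the same way. Of 14 on the array 11 varied, and 7 were called lower and 1 higher in TS than in NT. The shares over all varying genes were 21.1% and 19.3%. Tchh, trichohyalin, the granule protein of the inner root sheath and medulla, measured 10.43 to 11.14 in NT (median 11.02) and 7.10 to 10.61 in TS (median 8.71), a difference of -2.09 ± 0.43 (adjusted p = 0.00334). S100a3, a calcium-binding protein of the hair cuticle, had 9.43 to 10.55 in NT (median 10.12) and 6.41 to 9.42 in TS (median 7.71), a difference of -2.23 ± 0.39 (adjusted p = 0.000888). Prr9 fell by 2.51 ± 0.51 on the log2 scale (adjusted p = 0.00271). In all 3 genes TS replicate 6 was the highest TS array. Padi3, the enzyme that citrullinates trichohyalin, had a difference of -0.86, and Tgm3, a transglutaminase of follicle and epidermis, rose by 1.66 ± 0.26 (adjusted p = 0.000429). TS replicate 6 was the highest TS array in 6 of the 11 varying genes.

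Of 16 regulators of shaft and sheath differentiation, only 7 varied in the table. In TS 3 were called higher and 1 lower, against 19.3% and 21.1% of all varying genes. Bmp4, a signal that promotes shaft differentiation, measured 8.78 to 9.48 in NT (median 8.97) and 7.07 to 8.18 in TS (median 7.92), without overlap, a difference of -1.23 ± 0.16 (adjusted p = 0.000115). Ovol1 (1.04), Grhl3 (0.92) and Wnt10a (0.62) rose, the first a factor of epidermal and hair differentiation, Grhl3 a barrier factor and Wnt10a a Wnt ligand. TS replicate 6 was the highest TS array in 1 of the 7. Hoxc13 differed by -0.04 (adjusted p = 0.10) and was not called.

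Tissue markers moved in the same comparison, in which 21.1% of all varying genes were called lower and 19.3% higher. Skeletal muscle markers were called lower in 6 of 7, their summed level being 88.2 to 102 in NT and 72.1 to 80.3 in TS, and fat cell markers in 4 of 5 (54.9 to 58.8 against 46.1 to 51.0). Sebaceous gland markers were called lower in 4 of 6 (71 to 72.7 against 67.6 to 71.3), and stem cell and outer root sheath markers in 3 of 5 (47.4 to 48.95 against 44.8 to 46.1). Interfollicular epidermal markers were called higher in 3 of 6 and lower in 1. Of 7 dermal papilla markers only 2 varied, and Crabp1 was called higher (1.07) and Fgf7 lower (-0.60). The part of these shifts in the fall of the hair genes was not tested. Both comparisons with TS share its arrays, so a low TS value enters the difference from NT and, with the other sign, the difference from WB.

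In WB skin the hair genes were called higher than in TS in about as large a share as genes in general, and few were called lower. In WB against TS, 25 of the 48 genes were called higher (52.1%) and 1 lower. Of all varying genes 48.4% were called higher and 39.2% lower, and of all tested probe sets 12.5% and 11.1%. The share called higher is thus close to the background, and the median difference was 1.11, against 0.16 over all varying genes. Without TS replicate 6, 32 genes (66.7%) were called higher and 1 lower, against 47.9% of all varying genes called higher. Groups did not overlap, with WB higher, in 5 genes (41.3% of all varying genes), and in 25 without TS replicate 6 (41.9%). They did not overlap, with WB lower, in 1 gene, Krtap7-1 (34.7% of all varying genes, and 34.9% without TS replicate 6). Beside these counts stands the 3′ minus 5′ difference of the WB arrays given above.

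The calls of the inner root sheath keratins in WB against TS differed by type. All 4 type I genes were called higher in WB than in TS, against 48.4% of all varying genes. Krt26 measured 7.65 to 8.42 in WB (median 8.09), Krt27 10.52 to 11.83 (median 10.86), and both lay above all TS arrays. Their differences from TS were 1.40 ± 0.26 (adjusted p = 0.000287) and 2.80 ± 0.57 (adjusted p = 0.000587). Krt28 rose by 1.5 and Krt25 by 1.28 ± 0.50, the latter at adjusted p = 0.0479, which leaving out any of 16 arrays moved to between 0.05003 and 0.115. None of the 3 type II genes was called. Krt72 leaned upward, by 0.17 ± 0.08 (adjusted p = 0.0948), and was called higher without TS replicate 6 or WB replicate 5 (adjusted p 0.0345 to 0.048). Its difference from NT was -0.08. Krt71 measured 7.85 to 8.64 in WB (median 8.12, difference -0.61 ± 0.35, adjusted p = 0.183), and Krt73 6.59 to 7.50 (median 7.04, difference -0.84 ± 0.38, adjusted p = 0.0892). In both genes 5 of the 6 WB arrays lay below the TS median. The difference between the types was not tested.

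Krt75 of the companion layer measured 7.23 to 7.88 in WB (median 7.53), a difference of -0.18 ± 0.17 from TS (adjusted p = 0.442). Among type I shaft keratins Krt32 rose to 7.68 to 7.91 (median 7.83), above all TS arrays, by 0.55 ± 0.08 (adjusted p = 2.14e-05), and Krt31 rose by 1.16. Krt33a measured 7.50 to 8.41 (median 7.76, difference -0.08 ± 0.44, adjusted p = 1) and Krt35 7.55 to 7.88 (median 7.74, difference 0.18 ± 0.12, adjusted p = 0.254), both within the TS range. Of type II, Krt86 rose to 8.61 to 9.99 (median 9.31), by 2.47 ± 0.51 (adjusted p = 0.000714). Its neighbour on chromosome 15, Krt81, measured 7.34 to 7.93 (median 7.60, difference -0.22 ± 0.28, adjusted p = 0.637), and Krt83 measured 7.75 to 8.02 (median 7.88, difference 0.13 ± 0.10, adjusted p = 0.354). Krt81 and Krt86 had both fallen in TS, and only Krt86 was called in WB against TS.

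Ultra-high sulfur genes were called higher in WB than in TS in 9 of 11 (81.8%, against 48.4% of all varying genes). Krtap17-1 rose to 8.91 to 9.70 (median 9.25), above all TS arrays, by 1.73 ± 0.23 (adjusted p = 1.07e-05). Krtap5-5 measured 6.99 to 7.18 (median 7.09, difference 0.23 ± 0.04, adjusted p = 0.000348) and Krtap5-2 7.17 to 8.34 (median 7.57, difference 1.18 ± 0.29, adjusted p = 0.0031), and in each the highest TS array alone reached the WB range. Krtap4-1 rose by 2.47 ± 0.55 (adjusted p = 0.00142). The 2 not called were Krtap5-1 (0.00) and Krtap4-6 (1.07, adjusted p = 0.0757). Of the high sulfur genes 3 of 8 were called higher (37.5%), under the share of all varying genes. Krtap13-1 rose to 8.28 to 9.87 (median 9.05), by 2.16 ± 0.47 (adjusted p = 0.00102), Krtap3-1 by 1.33 and Krtap28-13 by 1.31. Krtap28-13 measured 7.75 to 8.79 in WB (median 8.09), overlapping the highest TS array alone, and Krtap26-1 measured 6.89 to 7.13 (median 7.05, adjusted p = 1), within TS.

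The high glycine-tyrosine genes went furthest in both directions. Krtap6-5 rose to 9.53 to 10.79 (median 9.93), by 3.52 ± 0.73 (adjusted p = 0.000706), the widest gain of the 48 genes, with TS replicate 6 inside the WB range. Its TS mean (6.55) lay under the table's median, so the size of this gain is uncertain. Krtap8-1 rose to 10.28 to 11.37 (median 10.74), by 2.32 ± 0.60 (adjusted p = 0.00439). Krtap7-1, which lies next to Krtap8-1 in the chromosome 16 cluster, fell further in WB, to 5.12 to 5.60 (median 5.43), by 2.36 ± 0.67 on the log2 scale (adjusted p = 0.00815), below all TS arrays and under the table's median. Krtap8-1 and Krtap7-1 had nearly the same differences in TS against NT, -2.49 and -2.40. Krtap16-3 (3.25), Krtap19-3 (1.56), Krtap19-2 (1.22) and Krtap19-5 (1.15) were also called higher. Krtap19-2 lost its call on leaving out any of 10 arrays (adjusted p up to 0.0801) and Krtap19-5 without TS replicate 1 or WB replicate 1 (up to 0.0547).

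Against unstripped skin, WB skin had 0 of the 48 genes called higher, 0 also at an unadjusted p under 0.05, and 14 lower (29.2%). Of all varying genes 46.9% were called higher and 41.3% lower, and of all tested probe sets 12.1% and 11.6%. On quantile-normalized values 3 were higher and 14 lower. The median difference was -0.17 and the range -4.77 to 1.03. WB was lower without overlap in 14 genes (37.4% of all varying genes) and higher without overlap in 0 (43.1%). These 14 are not all the genes called: Krtap22-2 and Krtap21-1 did not overlap and missed the call, and Krtap1-5 and Krtap19-9b were called and overlapped.

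The genes lower in WB than in NT included 2 type II sheath keratins. Krt71 had a difference of -2.38 ± 0.35 (adjusted p = 2.86e-05) and Krt73 of -2.46 ± 0.38 (adjusted p = 4.92e-05), both below all NT arrays. Krt75 had -0.95 ± 0.17 (adjusted p = 0.000173). Of the shaft keratins Krt33a (-2.12), Krt35 (-0.40), Krt33b (-0.80), Krt81 (-1.45) and Krt83 (-0.38) were lower, each without overlap. Of the associated proteins Krtap14 (-1.44), Krtap1-5 (-0.99), Krtap26-1 (-0.32), Krtap5-1 (-0.23), Krtap19-9b (-0.51) and Krtap7-1 (-4.77 ± 0.67, adjusted p = 1.68e-05) were lower. Krtap1-5 lost its call on leaving out any of 9 arrays and Krtap19-9b any of 13, with adjusted p up to 0.0796 and 0.108. The type I sheath keratins were not called: Krt27 differed from NT by -0.04 and Krt26 by -0.02, while Krt25 stood at -1.19 (adjusted p = 0.0639). Krt25 was called lower without TS replicate 4 or 6 (adjusted p 0.0246 to 0.036). Krtap11-1 (-1.41) and Krtap15 (-1.79), not called with all arrays, were called without TS replicate 1, 4 or 6, among others. Seen by cluster, the median difference of WB from NT was -0.04 for 19 genes on chromosome 11, -0.18 for 17 on chromosome 16 and -0.95 for 7 on chromosome 15, and that of TS from NT was -1.70, -1.39 and -1.23.

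WB arrays also varied less than TS arrays in most of these genes, the TS SD being above the WB SD in 45 of 48 (93.8%, against 55.7% of all varying genes). Per array, 15 to 27 of the 48 genes lay below all NT arrays and 1 to 18 above them, the 18 in WB replicate 1, which was the highest WB array in 30 genes. Over all varying genes 41.4% to 43.4% lay below all NT arrays and 47.7% to 48.8% above them. Other shaft and sheath proteins went both ways in WB: against TS 4 of the 11 were called higher and 3 lower. The shares over all varying genes were 48.4% and 39.2%. Tchh measured 10.79 to 11.65 (median 11.09), above all TS arrays, and rose by 2.41 ± 0.43 (adjusted p = 0.000204). Prr9 rose by 2.68 ± 0.51 (adjusted p = 0.00032). S100a3 fell further, to 5.50 to 5.76 (median 5.61), by 2.17 ± 0.39 on the log2 scale (adjusted p = 0.00019), below all TS arrays. Summed marker levels of skeletal muscle (45.1 to 61.4), fat cells (36.9 to 39.8) and sebaceous gland (63.5 to 65.0) were below those of NT and TS in every WB array. So were those of stem cells and outer root sheath (40.7 to 42.0). Interfollicular epidermal sums (68.3 to 70.3) lay below TS (73.9 to 76.5) and overlapped NT (69.9 to 74.1). Of these 6 markers only 2 were called lower than in TS, Krt5 (-3.20) and Krt14 (-2.88), and 0 higher. Against NT, 3 were called higher and 3 lower, where 46.9% and 41.3% of all varying genes were. Single markers differed: against TS, 2 of 6 sebaceous gland markers were called higher and 3 lower. Of the 5 stem cell and outer root sheath markers 2 were called higher and 3 lower. Of the 2 varying dermal papilla markers Fgf7 was called higher than in TS (0.45) and Crabp1 lower (-3.55). The part of these shifts in the results was not tested.

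A further probe set exists for 5 of the genes. For Krtap16-3 it differed by -1.56 in TS against NT (adjusted p = 0.0994) and by 2.26 in WB against TS (adjusted p = 0.00501), the same directions as the probe set used. Krtap12-1 was constant in the probe set chosen by the rule, while its other one fell by 1.09 on the log2 scale in TS (adjusted p = 0.00251) and rose by 1.21 in WB against TS (adjusted p = 0.000208). That of Krtap5-1 had -0.27 and 0.04, close to the values of the one used. That of Krtap19-1, whose chosen probe set was constant, had -0.47 in TS against NT (adjusted p = 0.369) and 0.54 in WB against TS (adjusted p = 0.137), neither called. That of Krtap6-3 was constant.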

How the data were processed

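Total RNA (100 ng per array) from the dorsal skin of NT, TS and WB mice was hybridised to Affymetrix mouse genome arrays. The authors deposited 1 value per probe set and array, read as log2; the sources used here do not give how they were summarised and normalized. Over the 18 arrays 73.5% of the probe sets ranged by less than 0.01. Array medians were 6.93 to 6.95 (NT), 6.93 to 6.94 (TS) and 6.90 to 6.91 (WB).

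Of 45101 probe sets 64 controls were left out. Symbols came from the platform annotation (34945 tested probe sets with 1 symbol, 932 with several, 9160 with none), and all 58 genes matched RefSeq. All groups were fitted together with limma 3.58.1 in R 4.3.3 (lmFit, eBayes, two-sided), with Benjamini-Hochberg adjustment over 45037 probe sets. Adjusted p values of a gene are from that fit, except where an array is said to be left out. There the fit was repeated without that array. The fit was tested on simulated data. The number of arrays limits the precision. The p-values set a difference between groups against the spread between arrays, which limma estimates per gene over all 3 groups. Of the probe sets used, 5 carry a suffix that can mark sequence shared between transcripts (Krtap11-1, Krtap16-3, Krt82, Krt36 and Krtap5-1).

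The genes and lists were chosen with earlier results of these data known. Values in every group are given for the 3 genes of each role with the smallest p over the 3 groups; Krt27, Tchh, S100a3, Bmp4 and the other genes of the lists with group values, and the shortened promoter windows, were chosen after seeing the data. Alternatives were quantile normalization, median centring, array weights, fits on 2 groups, on varying or brighter probe sets, means over a gene's probe sets, a replicate block and leaving out each array.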

Additional observations from a re-analysis of the deposited data

Results flagged for a closer look

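In 6 of 144 sets of 6 arrays (48 genes in 3 groups) the highest array stood apart from the rest by Dixon's measure (the gap to the next array over the whole range). Chance alone marks about 1 set in 20. TS replicate 6 stood apart in 3 genes. Krtap28-13 measured 7.94 in it and at most 6.84 in the other TS arrays. Krtap5-1 measured 7.81 in it and at most 7.59 in the others. Krtap19-2 measured 6.94 in it and at most 5.97 in the others. WB replicate 1 stood apart in Krtap10-4, at 8.41 with the next WB array at 8.06. It also did in Krtap19-3, a high glycine-tyrosine gene, at 9.01 with the next at 7.57. WB replicate 3 stood apart in Krtap6-3, at 7.26 with the next at 6.69.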

How the results depend on the processing

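No called difference changed direction under the alternatives run. Of the differences not called, 17 crossed 0 in at least 1 alternative, none of them in TS against NT, and all stayed without a call on both sides. With quantile normalization WB minus TS became 0.029 in Krt33a, 0.043 in Krtap26-1, 0.015 in Krtap19-9b and 0.009 in Krtap21-1, and WB minus NT became 0.120 in Krt26, 0.139 in Krt27, 0.068 in Krt72, 0.026 in Krtap28-13 and 0.037 in Krtap6-2. With median centring WB minus TS was 0.032 in Krtap26-1 and WB minus NT 0.015 in Krt26. With array weights WB minus TS was -0.071 in Krt33b and -0.005 in Krtap5-1. Leaving out each array gave ranges of WB minus TS of -0.342 to 0.287 in Krt33a, -0.046 to 0.299 in Krt33b, -0.377 to 0.020 in Krt81, -0.040 to 0.059 in Krtap26-1, -0.369 to 0.042 in Krtap14, -0.028 to 0.048 in Krtap5-1, -0.168 to 0.112 in Krtap19-9b and -0.247 to 0.384 in Krtap21-1. For 6 of these (not Krt33b and Krtap5-1) the sign changed without TS replicate 6. Ranges of WB minus NT were -0.111 to 0.071 in Krt26, -0.207 to 0.109 in Krt27, -0.300 to 0.009 in Krt28, -0.133 to 0.299 in Krtap19-3, -0.254 to 0.152 in Krtap19-5 and -0.320 to 0.315 in Krtap19-2. The cause of these changes of sign was not tested. The 1 gene called lower in WB than in TS (Krtap7-1) became 3 with array weights and 2 with median centring, with a replicate block or on varying probe sets only. The 0 genes called higher in WB than in NT became 2 in fits on 2 groups, 1 with median centring, 1 on varying probe sets only, 1 without TS replicate 6 and 3 with quantile normalization. Leaving out each array in turn gave 35 to 45 genes lower in TS than in NT (41 with all arrays), 22 to 32 higher in WB than in TS (25), and 12 to 19 lower and 0 to 1 higher in WB than in NT. Of the calls, 35 of 41, 23 of 26 and 12 of 14 held in all 18 of these fits. In fits on 2 groups 29 genes were lower in TS than in NT (41 in the joint fit), and 21 lower in WB than in NT (14 in the joint fit). The joint fit has 1 spread per gene for all 3 groups, and TS mostly varied most. Its calls are then stricter for WB against NT and more lenient for TS against NT. Over all varying genes, deviations of same-numbered arrays correlated at -0.14 to 0.18 between NT and TS. They correlated at -0.31 to 0.02 between TS and WB and at -0.09 to 0.16 between NT and WB. In the 48 genes, the median difference from the NT mean put the replicates of NT and TS in the same order: 1, 4, 5, 3, 2, 6. It ran from -0.34 to 0.37 in NT and from -2.26 to -0.01 in TS. The order in WB was another. Whether same-numbered NT and TS arrays are paired in these genes was not tested. With the replicate block, 39 genes were lower in TS than in NT, 24 higher and 2 lower in WB than in TS, and 13 lower and 0 higher in WB than in NT. The 3′ minus 5′ differences between groups moved by less than the spread between arrays when 1 array was left out.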
